A study of Pimephales promelas with 338 samples.

Results

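The genes f5 and fgb encode a pair of clotting proteins, coagulation factor V and the beta chain of fibrinogen. They were found by name among the 1832 probes of a targeted expression assay, 1 probe for each gene, and were followed in whole-body RNA of Pimephales promelas larvae. This fish, the fathead minnow, is a small freshwater species used in toxicity testing. The assay, TempO-Seq, joins a pair of detector oligonucleotides that lie side by side on a transcript and counts the joined products by sequencing. Larvae were exposed in deep-well plates for 24 h to 12 chemicals dissolved in DMSO, and the larvae of a treatment on a plate, 5 by design without those that died, were pooled into a library. There were 286 libraries of the chemicals, 18 DMSO and 18 caffeine controls from the exposure plates, and 8 DMSO and 8 caffeine libraries of a separate quality set, called QA in the labels.

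The codes D1 to D8 stand for the 8 nominal concentrations of a chemical, mostly between 66.67 and 0.021 µM. The range was 56.43 to 0.018 µM for Fipronil amide and 32.2 to 0.011 µM for Fexofenadine. The chemicals were tested as pairs in 6 exposures of 3 plates, A, B and C, which are the replicates. The pairs were Metolachlor OA with 3,4-Dichlorophenyl isocyanate, 1(2H)-Phthalazinone with Gabapentin, Metribuzin-DA with 2-tert-Butyl-4-methoxyphenol, Hydrochlorothiazide with 4-Chlorophenyl methyl sulfoxide, Cetirizine with Fipronil amide, and Fexofenadine with cis-Nonachlordane. Every exposure had its own DMSO and caffeine controls, caffeine being the study's positive control. Whether D1 or D8 is the highest concentration is not stated in the labels, so values are given by code and slopes per step towards D1. D1 of 2-tert-Butyl-4-methoxyphenol had a single library, from plate A. Larvae were not separated into tissues, so fewer cells of a type and less RNA per cell cannot be told apart.

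Blood clotting is a chain of proteolytic steps that ends in fibrin. Tissue factor starts the chain, activated factor V serves as the cofactor with which factor X cleaves prothrombin to thrombin, and thrombin cleaves fibrinogen, a protein built from alpha, beta and gamma chains, into fibrin. Fibrinogen and most of the circulating factors are made in the liver, and in mammals fibrinogen is an acute-phase protein that liver cells make more of during inflammation. Liver markers were present in the larvae: of the 7 hepatocyte markers listed, the panel held fabp10a, a fatty acid-binding protein of liver, and tat, tyrosine aminotransferase, and both were counted in each group where they were summed.

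The libraries held between 112247 and 1029511 counts, with a median of 609598, and the shallowest library, cis-Nonachlordane D6 of plate B, had 2 counts of f5 and 293 of fgb. Levels are given as CPM, the count of a probe scaled to a common library total. Over all libraries the f5 level ran from 17.3 to 193.8 CPM with a median of 46.9 CPM, and a library held a median of 28 f5 counts. The fgb level ran from 2096 to 6506 CPM with a median of 3151 CPM, from a median of 1914.5 counts. Both depth and the spread between libraries limited how closely each gene could be followed. Within the groups that had replicate libraries the f5 level varied by 32.3% (CV), where counting alone would give 18.9%. That value includes Gabapentin D5, with an SD of 82.0 CPM. The fgb level varied by 12.3%, where counting alone would give 2.31%, so most of its spread was not from counting. Changes of f5 carried standard errors of about 0.3 or more on the log2 scale in a comparison of 3 libraries with 3, larger than those of fgb.

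In DMSO larvae of the plates, the f5 level was 42.6 CPM ± 11.3 (SD, n = 18) and the fgb level was 3268 CPM ± 495. The QA DMSO libraries had 40.3 CPM ± 10.6 (SD, n = 8) of f5 and 2807 CPM ± 192 of fgb. The mean f5 level of an exposure's 3 DMSO libraries ran from 33.4 CPM ± 7.29 for Metolachlor OA with 3,4-Dichlorophenyl isocyanate to 50.9 CPM ± 6.14 for Cetirizine with Fipronil amide. For fgb the means ran from 2887 CPM ± 467 for Metribuzin-DA with 2-tert-Butyl-4-methoxyphenol to 3803 CPM ± 231 for Cetirizine with Fipronil amide. Neither gene passed the test of a difference between the 6 exposures (edgeR quasi-likelihood test, adjusted p = 0.702 for f5 and 0.201 for fgb), a test that 9.77% of 1474 probes passed.

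Over the 110 groups, the highest mean f5 levels were those of Gabapentin D5 at 99.2 CPM, 2-tert-Butyl-4-methoxyphenol D1 at 80.6 CPM and D2 at 79.8 CPM. The first of these rested on a single library. The 3 Gabapentin D5 libraries held 56.8, 47.1 and 193.8 CPM of f5, the last with 130 counts, and their fgb levels of 3861, 3333 and 3815 CPM showed no such gap. The lowest mean f5 level was that of 2-tert-Butyl-4-methoxyphenol D7, 28.6 CPM ± 2.97, and from Fexofenadine D2 at 67.0 CPM down to it, neighbouring groups differed by less than their spread. For fgb the highest means were those of 2-tert-Butyl-4-methoxyphenol D1 at 6107 CPM, 3,4-Dichlorophenyl isocyanate D1 at 5600 CPM ± 785 and 2-tert-Butyl-4-methoxyphenol D2 at 4945 CPM ± 1328. The next was Metolachlor OA D7 at 4116 CPM ± 630, and from there to the lowest, Fexofenadine D4 at 2523 CPM ± 52.1, neighbouring groups differed by less than their spread. The 3 leading fgb groups overlapped among themselves.

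Both genes were higher at the D1 end of 2-tert-Butyl-4-methoxyphenol, an antioxidant food additive known as butylated hydroxyanisole. The 2 genes were chosen by their levels with this chemical and by the rise of f5 with caffeine on the plates, so those values are a description with no test of their own. The f5 level was 80.6 CPM in the D1 library, 103.3, 66.6 and 69.6 CPM in the D2 libraries of plates A, B and C, and 50.2, 41.9 and 20.3 CPM in their DMSO libraries. All of the D1 and D2 libraries lay above all of the DMSO libraries, and at D3, with 58.7, 48.0 and 52.3 CPM, the groups overlapped. The f5 change from DMSO was 1.04 ± 0.41 (log2, SE) at D1, 1.08 ± 0.30 at D2, a 2.12-fold difference, and 0.57 ± 0.31 at D3. From D4 to D8 it lay between -0.42 and 0.27.

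The fgb level was 6107 CPM in the D1 library and 6457, 4411 and 3968 CPM at D2 in plates A, B and C. The DMSO libraries held 3385, 2816 and 2459 CPM of fgb. As with f5, D1 and D2 lay above DMSO without overlap, which at D2 was so for 8.94% of 1589 probes. At D3 the libraries held 4256, 3301 and 3853 CPM of fgb and overlapped DMSO by a single library, that of plate B. The fgb change was 1.02 ± 0.24 (log2, SE) at D1, 0.77 ± 0.18 at D2, a 1.70-fold difference, and 0.46 ± 0.18 at D3. From D4 to D8 it lay between -0.05 and 0.13, so the larger changes of fgb lay at the 3 codes nearest D1.

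Within each plate the 2 genes were higher at D2 than in the DMSO library of the same plate. The ratio for f5 was 2.06, 1.59 and 3.43 in plates A, B and C, and the ratio for fgb was 1.91, 1.57 and 1.61. The high f5 ratio of plate C came with the lowest f5 level of any plate DMSO library, 20.3 CPM, and without that library the f5 change at D2 was 0.75 instead of 1.08. Plate A held the highest D2 library of both genes, and without it the fgb change at D2 was 0.55. The slope over D1 to D8, which does not use the DMSO libraries, was 0.17 ± 0.04 log2 per step for f5 and 0.15 ± 0.02 for fgb. Of 1589 probes, 27.2% had a slope past the threshold with this chemical and 14.4% a rising one. Without D1 the slopes were 0.16 for f5 and 0.12 for fgb.

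**Figure D1:**
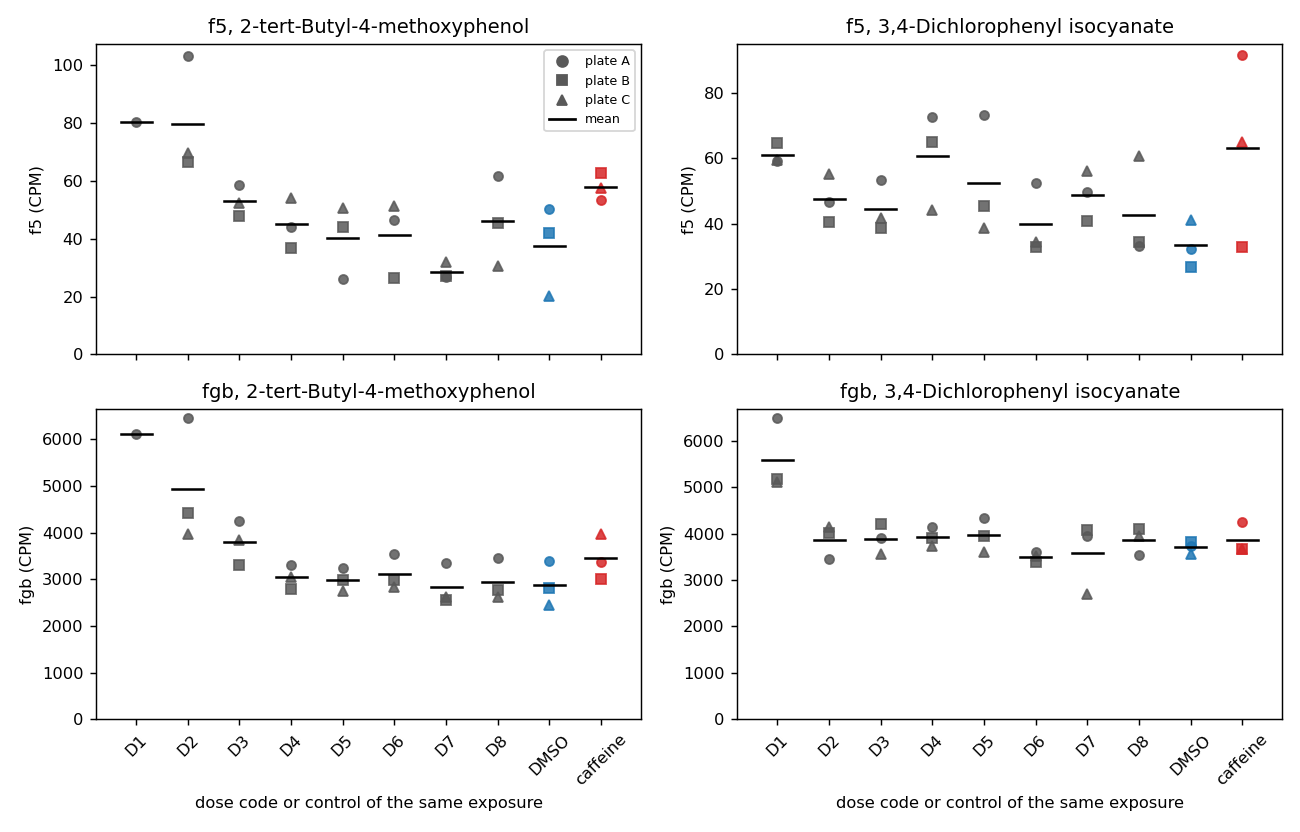
Level of f5 (top) and fgb (bottom) in CPM, in every library of 2-tert-Butyl-4-methoxyphenol (left) and 3,4-Dichlorophenyl isocyanate (right) by dose code, with the DMSO (blue) and caffeine (red) libraries of the same exposure. Symbols mark the plate and bars the mean of a group; fgb lies above its DMSO libraries at D1 and D2 of the first chemical and at D1 alone of the second.

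The other fibrinogen chain on the panel, fgg, the gamma chain, moved the same way in the same larvae. Its level was 432.7 CPM at D1 and 490.6, 418.2 and 414.8 CPM in the 3 D2 libraries, against 243.7, 282.1 and 259.5 CPM in DMSO. All of the D1 and D2 libraries were above DMSO. The fgg change at D2 was 0.75 ± 0.16 (log2, SE; edgeR adjusted p = 0.00153), at which 2.27% of 1589 probes rose. It passed at D2 without the D2 library of plate A and without the DMSO library of plate C, and did not pass with the whole of plate A left out, at 0.63 (adjusted p = 0.173), or of plate B, at 0.81 (edgeR adjusted p = 0.0519).

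Of 58 clotting genes listed, 11 were on the panel: the tissue factor gene f3a, f5, f13a1b, vwf, ggcx, vkorc1, fgb, fgg, fgl2a, pros1 and plaua. The alpha chain of fibrinogen, prothrombin and factor X were not among them. Of the 9 other than f5 and fgb, 2 rose towards D1 of 2-tert-Butyl-4-methoxyphenol and 1 fell, where 14.4% of all probes rose and 12.8% fell. Their median slope was 0.03, against -0.005 for all probes tested. The risers were fgg, by 0.10 ± 0.02 log2 per step (adjusted p = 3.98e-04), and f3a, by 0.22 ± 0.03 (adjusted p = 3.11e-08). The one that fell was vkorc1, the vitamin K epoxide reductase that recycles the vitamin K used in activating several clotting factors, by 0.21 ± 0.08 log2 per step (edgeR adjusted p = 0.0459). With a mean of 9.68 counts a library, vkorc1 did not pass with RLE scaling, with DESeq2, without the D2 library of plate A, without plate A, at -0.02 (adjusted p = 0.91), or without plate B, at -0.20 (edgeR adjusted p = 0.119). The rise of f3a rested on the D1 library. That library held 672.5 CPM of f3a, while the D2 libraries held 288.9, 87.4 and 106.5 CPM and the DMSO libraries 119.6, 120.9 and 143.5 CPM. Without D1 the slope of f3a was 0.04 (adjusted p = 0.539), that of vkorc1 was -0.04 (adjusted p = 0.775), and that of fgg was 0.08 (edgeR adjusted p = 0.0128). With plate A left out, which holds D1, the slope of fgg was 0.08 (adjusted p = 0.0511) and that of f3a was -0.04 (adjusted p = 0.5).

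The remaining clotting probes did not pass with 2-tert-Butyl-4-methoxyphenol. The slope of ggcx, the vitamin K-dependent carboxylase, was 0.03, that of f13a1b, a subunit of the fibrin-crosslinking factor XIII, 0.02, and that of pros1, the anticoagulant protein S, 0.03. The slope of vwf, the von Willebrand factor that tethers thrombocytes, was -0.07. The fibrinogen-like fgl2a, with a mean of 2.73 counts per library, and plaua, a plasminogen activator with a mean of 5.87, were too thinly counted to place, with slopes of 0.16 ± 0.09 and 0.14 ± 0.08.

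**Figure D2:**
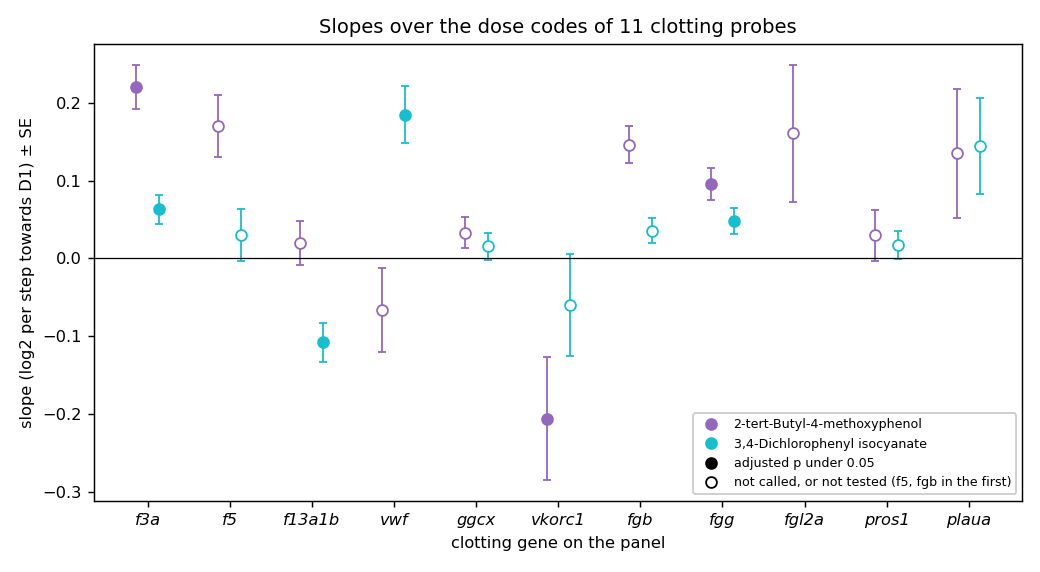
Slope over D1 to D8, in log2 units per step towards D1 with its SE, of the 11 clotting probes with 2-tert-Butyl-4-methoxyphenol (purple) and 3,4-Dichlorophenyl isocyanate (cyan). Filled points passed an adjusted p of 0.05, open ones did not or were not tested; fgl2a was not tested with the second chemical. With both chemicals the slopes of f5, fgb, fgg, f3a, ggcx, pros1 and plaua lie above 0, and that of vkorc1 below it. Those of vwf and f13a1b have opposite signs between the chemicals. The slopes of f5, ggcx, pros1 and vkorc1 with the second chemical, and of pros1 and f13a1b with the first, lie within their SE of 0.

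Other liver genes did not move as one with the clotting pair. Of 13 liver transcription factors and acute-phase signalling genes, 6 rose towards D1 and 1 fell, where 14.4% of all probes rose and 12.8% fell. Among the risers are genes of C/EBP factors, which drive acute-phase genes in mammalian liver. Of these cebpb rose by 0.35 ± 0.04 log2 per step (adjusted p = 1.50e-09), cebpd by 0.17 ± 0.03 (adjusted p = 1.88e-04) and cebpa by 0.10 ± 0.02 (adjusted p = 1.42e-04). The gene that fell was hnf4a, a transcription factor of liver and gut cells, by 0.21 ± 0.03 per step (edgeR adjusted p = 1.71e-06). All slopes of these liver genes include the single D1 library, and how far they rest on it is not shown here. At D2, where f5, fgb and fgg stood highest above DMSO in replicated libraries, 0 of the 13 passed by edgeR. With 3.15% of all probes passing there, a count of 0 among 13 is near that share. An unadjusted p under 0.05 was found for 4 of the 13, and for 15.9% of all probes. The median change of the 13 at D2 was 0.33, against 5.29e-06 for all probes tested. Of 6 hepatocyte enzymes and transport proteins tested, pygl, liver glycogen phosphorylase, rose towards D1, and fabp10a and gc, the vitamin D-binding protein of plasma, fell. The slope of fabp10a was not matched by a fall from DMSO at D2. Its libraries there held 322.8, 174.8 and 393.5 CPM, overlapping the 192.0, 274.0 and 220.4 CPM of DMSO, and the D1 library held 163.0 CPM. At D2 1 of the 6 passed upwards and 1 downwards, with a median change of 0.29. The one that rose was pygl, by 0.77 ± 0.20 (edgeR adjusted p = 0.017), in the direction of fgb. In the D2 libraries gc held 93.6, 62.4 and 130.7 CPM against 199.4, 159.6 and 149.3 CPM in DMSO, a change opposite to that of fgb (-0.81 ± 0.22, adjusted p = 0.0301). Of 5 plasma protein genes, apoc1, an apolipoprotein, rose towards D1, by 0.09 ± 0.03 (adjusted p = 0.0198).

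Of the marker sums, that of the intestine differed from DMSO without overlap at D1 and D2, downwards, while that of hepatocytes overlapped DMSO at D2 and that of erythrocytes at both codes. The sum of the 2 hepatocyte markers, of 7 listed, was 335 to 594 CPM at D2, 303 CPM at D1 and 318 to 426 CPM in DMSO, so that the D1 library lay just below DMSO. The sum of the 2 intestine markers, of 4 listed, was 776 to 859 CPM at D2 and 229 CPM at D1, below the 1202 to 1411 CPM of DMSO, and 4 of the 5 intestine and exocrine pancreas genes had falling slopes, against 12.8% of all probes. The sum of the 3 erythrocyte markers, of 4 listed, was 118 to 591 CPM at D2 and 118 CPM at D1, against 68.1 to 180 CPM in DMSO, and 1 of 3 tested erythrocyte genes rose and 1 fell. The 1 exocrine pancreas marker, of 4 listed, was at 111 to 373 CPM at D2 and 122 CPM at D1, against 337 to 572 CPM in DMSO. The sum of the 2 endothelial markers, of 4 listed, was 54.1 to 67.8 CPM at D2 and 69.3 CPM at D1, against 42.8 to 66.1 CPM. None of these markers was at 0 in a group. The 4 thrombocyte and 3 muscle markers were not on the panel, the single other gene of the thrombocyte list did not pass, nor did that of the muscle list, and 1 of 3 endothelial genes rose, beside the 14.4% of all probes that did. The part of cell makeup in the levels of f5 and fgb was not tested.

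With 3,4-Dichlorophenyl isocyanate, an intermediate in the making of phenylurea herbicides, fgb stood high at D1 alone. The D1 libraries held 6506, 5179 and 5116 CPM of fgb and the DMSO libraries of the exposure 3733, 3819 and 3572 CPM. The groups did not overlap, which was so in this direction for 19.9% of 1507 probes. The change of fgb was 0.53 ± 0.15 (log2, SE), a 1.44-fold difference, and it missed the threshold (edgeR adjusted p = 0.0897), which 4.25% of probes passed at some code. With the plate as a block it was 0.52 and passed (adjusted p = 0.0186), and with each plate left out in turn it lay between 0.37 and 0.59. From D2 to D8 the change of fgb lay between -0.11 and 0.21.

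At the same code f5 held 59.06, 64.6 and 59.5 CPM against 32.2, 26.8 and 41.2 CPM in DMSO. Again there was no overlap, as for 19.9% of 1507 probes. The change of f5 was 0.77 ± 0.33 (log2, SE) and did not pass (edgeR adjusted p = 0.451). Unlike fgb, f5 was also above its DMSO libraries without overlap at D4, where the change was 0.78 ± 0.32 (adjusted p = 0.422). Over the 88 codes of the 11 chemicals other than 2-tert-Butyl-4-methoxyphenol, f5 lay wholly above DMSO at 6 and wholly below it at 4. The matching counts for fgb were 4 and 6. The share of all probes was not counted at D4 or over these codes. Neither the separation of f5 at D4 nor these counts are read as a result. The DMSO libraries of this exposure had the lowest mean f5 level among the exposures, 33.4 CPM. The slope of fgb towards D1 was 0.04 ± 0.02 per step (adjusted p = 0.125). With the plate block that slope passed (adjusted p = 0.0499), and without D1 it was -0.01. The slope of f5 was 0.03 ± 0.03 (adjusted p = 0.571).

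The gamma chain gene fgg held 549.6, 448.4 and 484.7 CPM at D1 of 3,4-Dichlorophenyl isocyanate against 313.0, 381.4 and 328.5 CPM in DMSO, and its change of 0.47 ± 0.15 did not pass (edgeR adjusted p = 0.181). Over the codes, 3 of the 8 other clotting probes tested rose towards D1 and 1 fell, in a test that 18.7% of 1507 probes passed and 8.03% passed upwards. The risers were fgg (0.05 per step, adjusted p = 0.0321), f3a (0.06, adjusted p = 0.0124) and vwf (0.19, adjusted p = 2.58e-04), and f13a1b fell by 0.11 per step (edgeR adjusted p = 0.00152). All 4 passed without plate A, vwf and f13a1b passed without plate B and without D1, and none passed without plate C. The slopes without plate C were 0.05 for fgg, 0.05 for f3a, 0.14 for vwf and -0.09 for f13a1b (edgeR adjusted p = 0.0527 to 0.18). At D1 the intestine marker sum was 594 to 1053 CPM against 1245 to 1898 CPM in DMSO, and the erythrocyte marker sum was 91.8 to 122 CPM against 33.0 to 82.5 CPM. The exocrine pancreas marker was at 246 to 488 CPM against 662 to 1033 CPM. The hepatocyte sum overlapped, at 305 to 786 CPM against 388 to 477 CPM. So did the endothelial sum, at 54.1 to 88.4 CPM against 41.1 to 57.7 CPM. How often other sums separate in this way was not counted. The list of erythrocyte genes did not rise with its marker sum. Of 3 tested at D1, 0 passed upwards and 1 downwards, with a median change of -0.37, where 4.25% of all probes passed at some code. Over the codes 2 of the 3 fell and 0 rose. Of all probes, 18.7% passed in either direction and 8.03% upwards. Of 6 hepatocyte enzymes and transport proteins tested, 2 passed upwards at D1 and 0 downwards, where 4.25% of all probes passed at some code. Their median change was 0.16. Over the codes 3 of these 6 rose and 0 fell. Of 12 liver transcription factors and acute-phase signalling genes, 0 rose and 2 fell over the codes. Of 4 plasma protein genes, 0 rose and 1 fell. The part of these shifts in the level of fgb was not tested.

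Over the 11 chemicals other than 2-tert-Butyl-4-methoxyphenol, neither gene passed at any of the 88 codes or in any of the 11 slopes (edgeR quasi-likelihood test, adjusted over all probes and codes of a chemical). DESeq2 also called 0. With the plate as a block, fgb passed at D1 of 3,4-Dichlorophenyl isocyanate (edgeR adjusted p = 0.0186) and in the slope of that chemical (adjusted p = 0.0499). In the fit without the block, 0.0654% of the code tests and 1.72% of the slope tests of all probes passed. At an unadjusted p of 0.05, f5 had 6 codes and 0 slopes and fgb had 8 codes and 1 slope, against 4.21% of all code tests and 7.78% of all slope tests. The change of f5 from DMSO ran from -0.65 at Fipronil amide D7 to 0.88 at Gabapentin D5, and without the library of 193.8 CPM the latter was 0.10. The change of fgb ran from -0.38 at Fipronil amide D8 to 0.53 at 3,4-Dichlorophenyl isocyanate D1.

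The f5 level was higher than in DMSO at 62 of the 88 codes, and the fgb level at 38. A difference in direction between the genes was not tested, and the share of all probes was not counted. The 8 codes of a chemical share 3 DMSO libraries, as do both chemicals of an exposure, so these counts are not independent. For f5 all 8 codes lay above DMSO with 3,4-Dichlorophenyl isocyanate, Metolachlor OA and Fexofenadine, the first 2 of which share their DMSO libraries. For fgb all 8 codes lay below DMSO with Fexofenadine, Cetirizine and Fipronil amide, and all 8 lay above it with 1(2H)-Phthalazinone, by 0.04 to 0.22, and Gabapentin, by 0.01 to 0.28. Cetirizine and Fipronil amide share their DMSO libraries, as do 1(2H)-Phthalazinone and Gabapentin. With Fexofenadine, an antihistamine, the f5 changes lay between 0.09 and 0.63 and the fgb changes between -0.30 and -0.12, and neither slope passed (edgeR adjusted p = 0.915 and 0.877). Its DMSO libraries are shared with cis-Nonachlordane, where the f5 changes lay between -0.04 and 0.41 and the fgb changes between -0.28 and 0.002. These DMSO libraries held 2638, 2818 and 4060 CPM of fgb, so a single high library lowers the fgb changes of both chemicals.

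**Figure D3:**
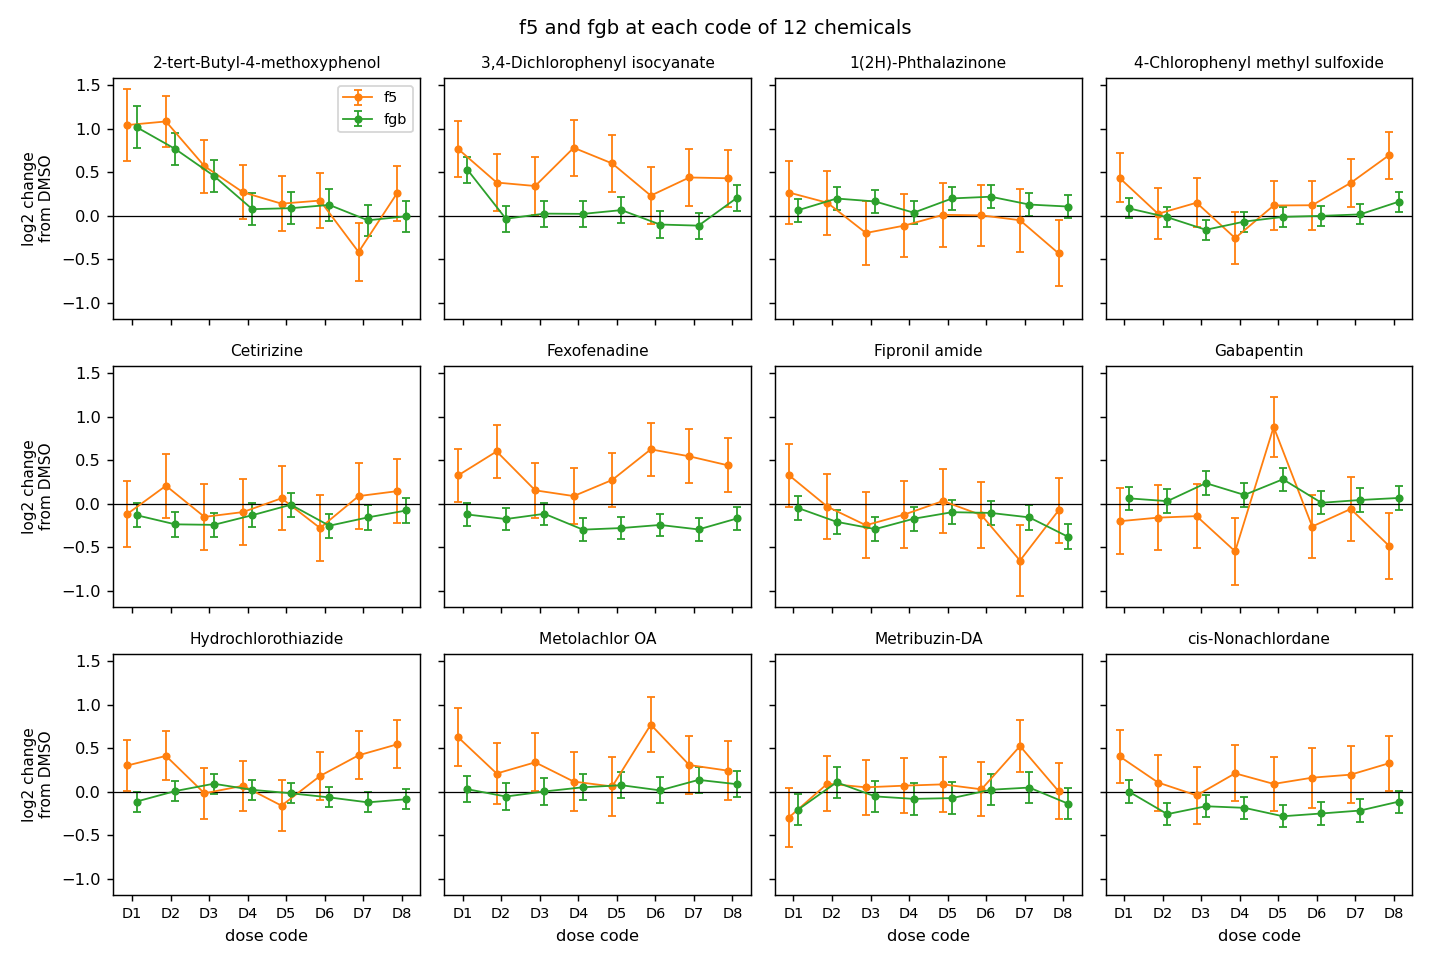
Change of f5 (orange) and fgb (green) from the DMSO libraries of the exposure, in log2 units with its SE, at the dose codes D1 to D8 of each of the 12 chemicals. Values come from edgeR fits over all libraries of an exposure; changes above 0.5 of both genes at the same code are seen at D1 and D2 of 2-tert-Butyl-4-methoxyphenol and D1 of 3,4-Dichlorophenyl isocyanate.

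Caffeine, a methylxanthine that blocks adenosine receptors, came with higher f5 on the plates, the contrast for which f5 was chosen. The caffeine libraries, on the plates and in QA, are those of the treatment label, while their titles name DMSO. The f5 level of the 18 caffeine libraries ran from 29.0 to 91.6 CPM with a median of 60.9 CPM, and that of the 18 DMSO libraries from 20.3 to 58.2 CPM with a median of 46.5 CPM. The groups overlapped. The f5 change was 0.46 ± 0.13 (log2, SE), a 1.38-fold difference. Caffeine was higher in 15 of the 18 plate pairs, a count that 1.09% of 1466 probes reached. Within the 6 exposures the f5 change was 0.85, 0.34, 0.62, 0.62, 0.13 and 0.20, in the order in which the pairs of chemicals are named above, and it was above 0 in each. A difference of this change between exposures did not pass for f5 or fgb (edgeR adjusted p = 0.99 for each), nor for any of 1506 probes (0%), with 64 at an unadjusted p under 0.05.

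The fgb level on the plates ran from 2699 to 4261 CPM with caffeine, median 3614 CPM, and from 2459 to 4061 CPM with DMSO, median 3148 CPM. The ranges overlapped almost wholly. The fgb change was 0.14 ± 0.05 (log2, SE), higher in 13 of 18 pairs, which 7.5% of 1466 probes reached, and did not pass (edgeR adjusted p = 0.141), in a test that 4.09% of 1466 probes passed and 1.64% passed upwards. It passed at 0.18 (adjusted p = 0.0499) without the exposure of Fexofenadine and cis-Nonachlordane, where the fgb change was -0.02. In that exposure the DMSO libraries held 2638, 2818 and 4060 CPM of fgb and the caffeine libraries 2699, 2793 and 3076 CPM, so its change leans on a single high DMSO library.

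**Figure D4:**
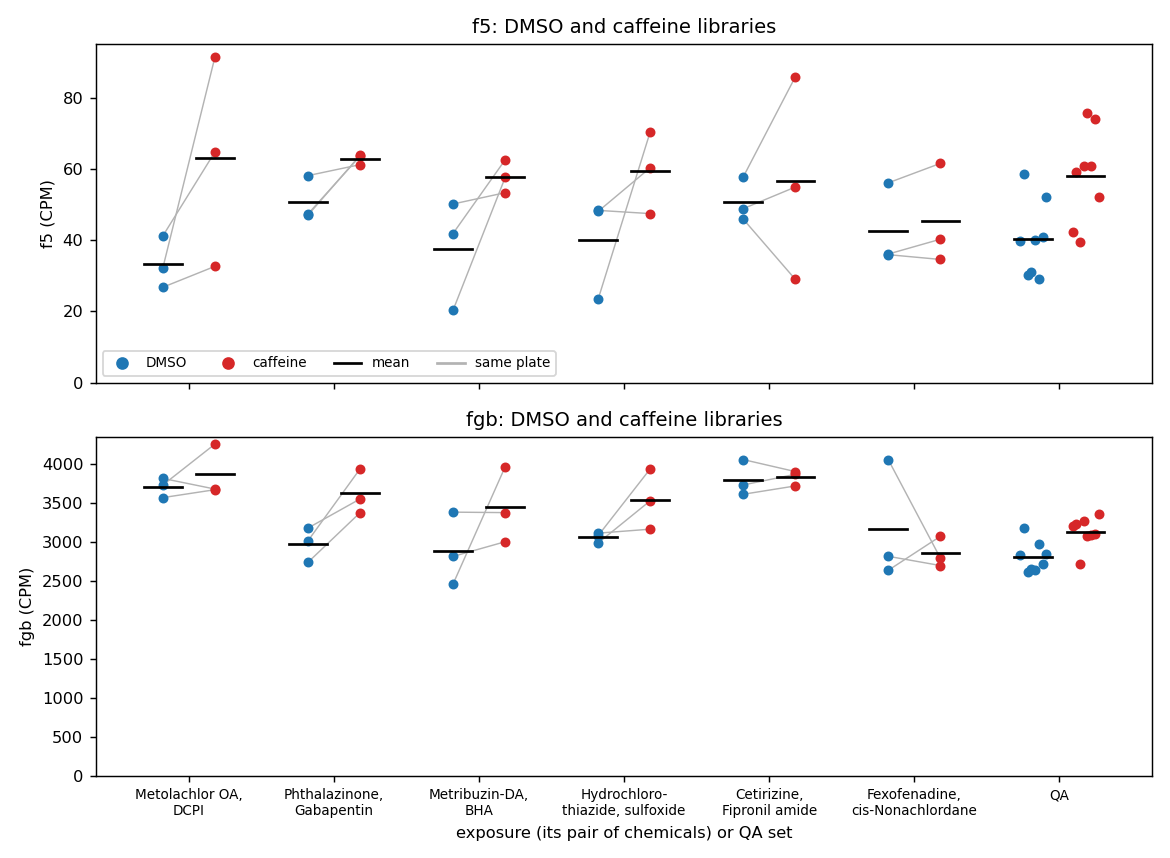
Level of f5 (top) and fgb (bottom) in CPM in every DMSO (blue) and caffeine (red) library of the 6 exposures and the QA set, with group means as bars and grey lines joining libraries of the same plate. DCPI stands for 3,4-Dichlorophenyl isocyanate, BHA for 2-tert-Butyl-4-methoxyphenol, Phthalazinone for 1(2H)-Phthalazinone and sulfoxide for 4-Chlorophenyl methyl sulfoxide; both QA caffeine means lie above the QA DMSO means, with overlap.

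The plate contrast for which f5 was chosen did not use the QA libraries. Whether earlier results of the QA set also entered the choice of either gene is not known. The p-values of the QA set are therefore not taken as independent tests. In the QA set f5 was at 39.4, 60.1 and 75.8 CPM with caffeine (lowest, median and highest of 8) and at 29.2, 40.0 and 58.6 CPM with DMSO. Of the caffeine libraries, 5 lay above the highest DMSO library. The f5 change was 0.52 ± 0.16 (log2, SE), a 1.44-fold difference. It did not pass over all probes (edgeR adjusted p = 0.112), a test that 1.28% of 1324 probes passed and 0.906% passed upwards, and the exact permutation test of the single gene gave an unadjusted two-sided p of 0.00622. Without the DMSO QA library of the highest f5 level the change was 0.63 and passed (adjusted p = 0.0419), and without the library plate numbered 3 it was 0.37 (edgeR adjusted p = 0.653). By library plate the log2 ratio of the f5 means was 0.04, 0.71, 0.98 and 0.44, so that the first plate showed next to no difference in f5.

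For fgb the QA caffeine libraries held 2720, 3161 and 3357 CPM and the DMSO libraries 2622, 2778 and 3175 CPM (lowest, median and highest of 8). Of the caffeine libraries, 4 lay above the highest DMSO library. The fgb change was 0.18 ± 0.05 (log2, SE), a 1.13-fold difference, and missed the threshold (edgeR adjusted p = 0.0715). The exact permutation test of the single gene gave an unadjusted two-sided p of 0.000777. With the library plate as a block the same change passed (adjusted p = 0.007), as it did with DESeq2 (adjusted p = 0.00945), without the DMSO library of 3175 CPM (0.20, adjusted p = 0.0338) or without the caffeine library of 2720 CPM (0.19, edgeR adjusted p = 0.0407). By library plate the log2 ratio of the fgb means was 0.10, 0.18, 0.14 and 0.22, above 0 in all 4.

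The caffeine changes on the plates and in the QA set did not differ for f5 by more than their error, the QA value being 0.08 ± 0.23 above that of the plates. For fgb it was 0.05 ± 0.08 above (edgeR adjusted p = 0.999 for each, 0 of 1465 probes passing and 49 at an unadjusted p under 0.05). The labels leave unstated if the QA libraries were made from separate larvae, and their p-values then speak of the spread between libraries, which may be technical. None of the other clotting probes passed with caffeine by edgeR, 7 being tested on the plates and 6 in QA, and 1 in each set, fgg, had an unadjusted p under 0.05, as did 16.6% of all probes on the plates and 10.1% in QA. For fgg the change was 0.18 in both sets (adjusted p = 0.151 and 0.398). Of the hepatocyte enzymes and transport proteins, 1 of 6 rose on the plates and 2 of 5 in QA, where 1.64% and 0.906% of all probes did. In both sets tat rose, by 0.75 ± 0.10 on the plates (adjusted p = 1.69e-06) and 0.59 ± 0.10 in QA (edgeR adjusted p = 6.21e-04), and in QA pah, phenylalanine hydroxylase, rose by 0.32 ± 0.07 (adjusted p = 0.00651).

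Marker sums of other cells differed with caffeine in the QA set. In QA the erythrocyte marker sum was 126 to 168 CPM with caffeine and 73.2 to 123 CPM with DMSO, and the intestine marker sum was 1579 to 1974 CPM and 1339 to 1503 CPM, neither overlapping. Of 3 erythrocyte genes tested in QA, 1 passed upwards, and their median change was -0.02, where 0.906% of all probes passed upwards. The same count on the plates was 1 of 3, with a median change of 0.24, where 1.64% did. The intestine sum was that of 2 markers, and the 5 intestine and exocrine pancreas genes had a median change of -0.05 in QA. Of them alpi.2, an intestinal phosphatase, rose by 0.31 (adjusted p = 6.86e-04), and amy2a, a pancreatic amylase, fell by 0.20 (edgeR adjusted p = 0.0298). On the plates 2 of these 5 genes rose. On the plates both overlapped, the erythrocyte sum being 90.0 to 532 CPM with caffeine and 33.0 to 181 CPM with DMSO, and the intestine sum 1252 to 2140 CPM and 1082 to 1981 CPM. The hepatocyte marker sum overlapped in QA, at 426 to 676 CPM with caffeine and 392 to 644 CPM with DMSO. The part of these shifts in the levels of f5 and fgb was not tested.

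The likeness of other probes to the pair was described by the Pearson r of log2 CPM over all libraries, each value taken from the mean of its exposure, among probes with a mean of at least 20 counts. The libraries share plates, controls and depth. For fgb the most alike were ahcy at 0.567, the enzyme that splits S-adenosylhomocysteine, ldha at 0.556, lactate dehydrogenase, fgg at 0.52, aldoaa at 0.507, an aldolase, and pygl at 0.436. The partner chain fgg thus ranked 3 of 1108. Without the D1, D2 and caffeine libraries the r of fgb with fgg was 0.353 over 242 libraries, and fgg ranked 14. For f5 the values were lower: slc38a5b, an amino acid transporter, was at 0.445, clk4a, a splicing kinase, at 0.44, pfklb, a phosphofructokinase, at 0.428, ppp1cb, a phosphatase subunit, at 0.401, and spen, a transcriptional repressor, at 0.389. The r of f5 with fgb was also 0.389, sixth among the probes. Without the D1, D2 and caffeine libraries it was 0.282, at rank 17. In the sparse counts of f5 a correlation of this size is weak.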

How the data were processed

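The authors deposited a count for every probe and library, whole numbers without normalization, per the file headers and the values. Base calling used bcl2fastq, per the submitters' processing notes; no source used here names the aligner, the genome build or the probe sequences, so no coordinates or sequences are printed. Of 1829 gene symbols, f5 and fgb among them, 1721 matched the RefSeq genes of assembly fPimPro1.hap1.1, used for names alone. A probe reads a short part of a transcript, and near-identical gene copies may share it. Groups follow the treatment labels. All of the caffeine libraries, 26 in number, have titles that name DMSO, so the caffeine groups rest on the treatment label alone. The sulfoxide of the sample labels is called a sulfone in the series text.

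Counts were tested over all probes in R 4.3.3 with the quasi-likelihood test of edgeR 4.0.16 (on limma 3.58.1). Libraries were scaled by TMM, thinly counted probes were removed by filterByExpr (minimum count 10), and p-values were adjusted by Benjamini-Hochberg with a threshold of 0.05. A model per exposure held a mean for every group. Codes were set against the exposure's DMSO libraries, adjusted over probes and codes, and slopes were linear contrasts over the code means. On the plates the caffeine contrast had exposure as a covariate; in the QA set 12870 permutations were also enumerated. The nearest replicate libraries differed by more than sampling noise (chi-square per degree of freedom 1.48 or more), so none was counted as deposited more than once. Libraries of a plate deviated together, the mean correlation being 0.04 to 0.15 by exposure and 0.16 by QA library plate, and the labels name the plate, so the block is a paired fit. Counts come from PCR reads, with no molecular identifiers named, and counting errors cover counting alone.

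The members, the gene lists and the named genes were chosen with earlier results of these data known. The clotting genes on the panel are all named; of other lists (liver transcription factors, hepatocyte enzymes, plasma proteins, intestine and pancreas, erythrocytes, thrombocytes, endothelium, muscle) counts and up to 4 genes a comparison. Alternatives were RLE scaling, no filter, DESeq2 1.42.0, the plate block, libraries, plates or exposures left out, and slopes without D1.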

Additional observations from a re-analysis of the deposited data

Results flagged for a closer look

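In the 8 QA caffeine libraries, the lowest fgb level, 2720 CPM, stood apart from the rest, which held 3074 to 3357 CPM. Its gap to the nearest library was 0.556 of the range of the group, above the 95% critical value of Dixon's test for 8 values. Chance gives such a gap in about 1 of 20 groups, and 4 groups were looked at, f5 and fgb each with caffeine and with DMSO. Without this library the fgb change with caffeine was 0.19 (log2) and passed.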

How the results depend on the processing

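The changes of f5 and fgb with 2-tert-Butyl-4-methoxyphenol and of f5 with caffeine on the plates kept their direction under every alternative run, with the slope of f5 between 0.16 and 0.17 and that of fgb between 0.11 and 0.15. For the QA caffeine change of f5, leaving out single libraries gave 0.463 to 0.633 and leaving out library plates 0.366 to 0.718, the last without the plate numbered 1 (adjusted p = 0.0439), and the mean difference in the permutation test was 0.529. For fgb it was 0.181 with DESeq2 and 0.177 with the library plate as a replicate block, both past the threshold, 0.188 in the permutation test, and 0.16 to 0.20 with libraries left out. On the plates the fgb change passed without the exposure of Fexofenadine and cis-Nonachlordane, at 0.175, and lay between 0.10 and 0.18 over all alternatives. With the plate as a replicate block, 1 code and 1 slope of fgb passed in the other 11 chemicals, both with 3,4-Dichlorophenyl isocyanate. Without D1 that fgb slope was -0.00832. Apart from that code, that slope and the QA change of fgb with caffeine, the pairing changed no call of the pair.

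The 3 clotting probes past the threshold at 2-tert-Butyl-4-methoxyphenol D2 became 0 to 2 with a plate left out, and 1 without the D2 library of plate A or the DMSO library of plate C. The 5 slopes became 2 without plate A and 3 without D1, and lost vkorc1 with RLE scaling and with DESeq2, and the 4 slopes with 3,4-Dichlorophenyl isocyanate became 0 to 4 with a plate left out and 2 without D1. The counts with 2-tert-Butyl-4-methoxyphenol include f5 and fgb, which were chosen by their levels with it. For these genes the counts are a description and no test. Of the other clotting probes, fgg alone passed at D2 with all libraries, and fgg, f3a and vkorc1 in the slopes. Among all probes, 3.15% passed at D2, 27.2% in the slopes of this chemical and 18.7% in those of 3,4-Dichlorophenyl isocyanate. This set of alternatives and the left-out single libraries of exposures were chosen after seeing the data. The cause was not tested. Depth limits f5, with a median of 28 counts a library.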
